A study of Rattus norvegicus with 6 samples.

Results

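The endocannabinoid system is described here through 7 genes, the receptors Cnr1 and Cnr2 and the enzymes Faah, Mgll, Dagla, Daglb and Napepld, in the prelimbic cortex (PL) of rats with spared nerve injury (SNI). The members were the probe sets whose only gene symbol in the platform annotation was one of these 7. There were 11 such probe sets among the 31042 tested, and they stood for 5 of the 7 genes. Cnr1 was read by 2 probe sets, Cnr2 by 1, Faah by 2, Mgll by 4 and Daglb by 2. No probe set carried Dagla or Napepld as its symbol, and both genes were not analysed here. The annotation gives each Faah probe set 2 gene records with the same symbol, of which RefSeq lists 1, so both probe sets were kept.

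All samples came from male Sprague-Dawley rats, which were acquired at 6 to 7 weeks of age per the study's methods. The methods date the dissection 14 days after surgery, which was on the left hind limb, and do not give the age then. In the SNI group the tibial and common peroneal nerves were cut and the sural nerve was left whole. The methods describe a sham group whose nerves were only exposed, and do not state that the control samples came from it. The contralateral PL was dissected from both groups and its total RNA was read on Affymetrix GeneChip arrays of the rat genome, 3 samples per group. Whether each sample was a different rat is not stated, and a p-value here speaks only of the spread among these 6 samples, part of which may be technical.

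Endocannabinoids are lipids that neurons make on demand and release backwards across the synapse. 2-arachidonoylglycerol (2-AG) is made by the diacylglycerol lipases, encoded by Dagla and Daglb, and is mostly broken down by monoacylglycerol lipase, encoded by Mgll. Anandamide is made by an enzyme encoded by Napepld, among other routes, and is broken down by fatty acid amide hydrolase, encoded by Faah. Both lipids bind CB1, the product of Cnr1, which sits on axon terminals and lowers transmitter release through Gi/o proteins. In the cortex CB1 is most abundant on interneurons that also make cholecystokinin. CB2, the product of Cnr2, is mainly a receptor of immune cells. The system is known for dampening pain.

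In the deposited table the median of each row over the samples is 0 on the log2 scale. Each value below is therefore a log2 value relative to that median, and neither the level of an mRNA nor whether it was detected could be read. The same holds for cell type markers, so the labelled tissue could not be checked by level. In bulk tissue, fewer cells of a type and less RNA per cell cannot be told apart.

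No member probe set passed an adjusted p of 0.05 in limma, with adjustment over all probe sets. Limma is also the package that the study's methods name for the array data. The adjusted p ranged between 0.182 and 0.977, while 0.0322% of all probe sets passed. At an unadjusted p under 0.05, 2 of the 11 were higher in the SNI group, where 5.6% of all probe sets were, and none was lower, where 7.47% were. With the methods' t-test the count was also 2, but 1 was higher (Cnr1 1387674_at) and 1 lower (Daglb 1384788_at), and Mgll 1375247_at was not among them. The SNI and control samples did not overlap for 2 higher probe sets (background 8.35%) and 1 lower probe set (background 11.2%). In either direction these 3 of 11 compare with a background of 19.6%. A total of 7 probe sets had a difference above 0, as 49.6% of all probe sets had, and 4 had one below 0. The median difference was 0.069, against −0.0011 for all probe sets.

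**Figure D1:**
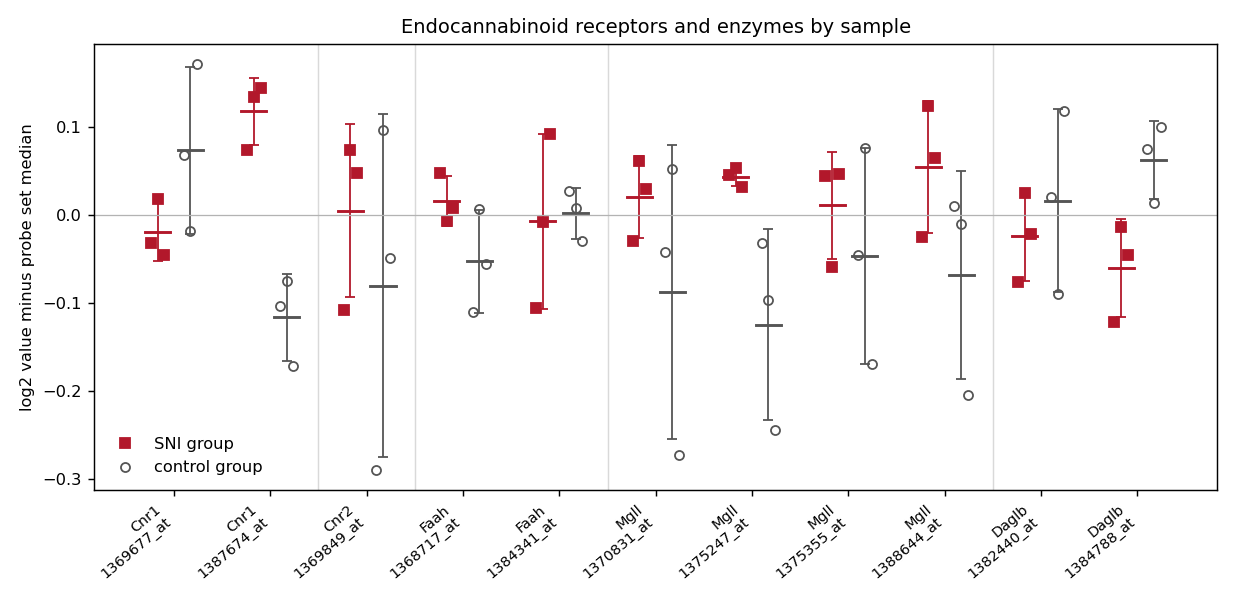
Centred log2 values (y axis; 0 is the median of the row) of the 11 probe sets of Cnr1, Cnr2, Faah, Mgll and Daglb (x axis); filled squares are the 3 samples of the SNI group and open circles the 3 samples of the control group, in the order of their numbers, with bars for means and whiskers for SDs. The groups do not overlap for Cnr1 1387674_at, Mgll 1375247_at and Daglb 1384788_at.

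The receptor Cnr1 gave opposite signs on its 2 probe sets. Probe set 1387674_at, annotated to the RefSeq mRNA, had values of 0.074, 0.13 and 0.15 in the SNI samples, given here and below by sample number (1, 2, 3), and −0.10, −0.074 and −0.17 in the control samples. All SNI samples lay above all control samples. The log2 difference was 0.23, a ratio of 1.18 (SE 0.061, 95% confidence interval 0.094 to 0.37, limma adjusted p = 0.182). It was the largest difference of the 11 member probe sets, and 8.36% of all probe sets had a difference of at least this size in either direction. Without control sample 2 its adjusted p was 0.0982, the lowest of all alternatives run for the members, and over the alternatives it reached 0.652.

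Probe set 1369677_at of Cnr1, annotated to another mRNA record, went the other way. Its values were −0.032, 0.018 and −0.045 in the SNI samples and 0.068, −0.018 and 0.17 in the control samples. The groups overlapped through control sample 2. The log2 difference was −0.093 (SE 0.069, 95% confidence interval −0.25 to 0.065, limma adjusted p = 0.636), and it was −0.044 without control sample 3.

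On each array the gap between the probe sets of Cnr1 can be read as 1387674_at minus 1369677_at. It was 0.11, 0.12 and 0.19 in the SNI samples and −0.17, −0.056 and −0.34 in the control samples, with no overlap. The gap averaged 0.14 ± 0.046 in SNI samples and −0.19 ± 0.14 in control samples (SD, n = 3 each), so the groups differed by 0.33. Of the 3065 genes read by exactly 2 probe sets, 4.11% had a gap at least as large in either direction, and 20.2% had gaps without overlap of the groups. The median absolute gap of these genes was 0.10. Which parts of the Cnr1 transcript the probe sets read is not given in the sources used here.

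**Figure D2:**
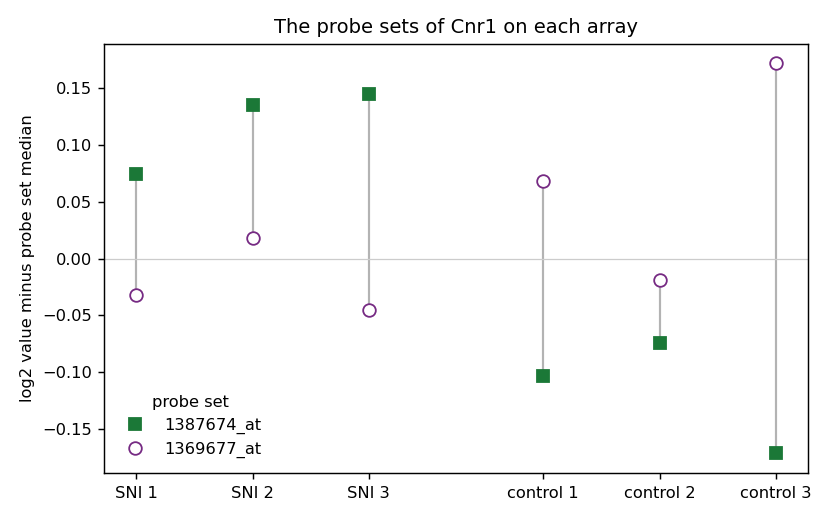
Log2 value minus the probe set median (y axis) of the 2 Cnr1 probe sets on each of the 6 arrays (x axis). Filled squares are 1387674_at, open circles are 1369677_at, and a grey line joins the values of one array; 1387674_at is the upper one in the 3 SNI samples and the lower one in the 3 control samples.

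The gene mean of Cnr1 joins these opposite values. It was 0.049 ± 0.028 in SNI samples and −0.021 ± 0.024 in control samples (SD, n = 3 each), without overlap. The difference of 0.071 (SE 0.051, 95% confidence interval −0.046 to 0.19, limma adjusted p = 0.608) was made of probe sets at 0.23 and −0.093.

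Cnr2, the CB2 receptor gene, was read by probe set 1369849_at. Its values were −0.11, 0.074 and 0.049 in the SNI samples and −0.29, 0.097 and −0.049 in the control samples. The groups overlapped, and control sample 2 had the highest value of all. The log2 difference was 0.085 (SE 0.10, 95% confidence interval −0.16 to 0.33, limma adjusted p = 0.793). It was −0.019 without control sample 1, the lowest sample, and 0.17 without control sample 2. Cnr2 had the widest interval of the 11 probe sets. When the mean of the hybridization controls was added to the limma fit, its difference was 0.53 (SE 0.16, adjusted p = 0.476). Those controls did not overlap between the groups, so this covariate and the group can hardly be told apart.

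Of the enzymes that make 2-AG, Daglb was measured. Both of its probe sets had lower means in the SNI group, and neither passed the test. Probe set 1384788_at had −0.12, −0.013 and −0.046 in the SNI samples and 0.075, 0.013 and 0.10 in the control samples. Every SNI sample lay under every control sample, although SNI sample 2 and control sample 2 lay close together. The log2 difference was −0.12 (SE 0.062, 95% confidence interval −0.27 to 0.021, limma adjusted p = 0.462).

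Probe set 1382440_at of Daglb had −0.076, 0.025 and −0.021 in the SNI samples and 0.021, −0.090 and 0.12 in the control samples, with overlapping groups. Its difference was −0.041 (SE 0.073), and it was 0.010 without control sample 3. The gene mean of Daglb differed by −0.082 (SE 0.061, 95% confidence interval −0.22 to 0.059, limma adjusted p = 0.625). It was −0.047 without control sample 3, −0.053 without SNI sample 1 and −0.011 with the hybridization controls as a covariate.

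Mgll, which ends the 2-AG signal, was read by 4 probe sets, and all 4 had higher means in the SNI group. Of the 290 genes read by 4 probe sets, 24.5% had all 4 on one side of 0. Probe set 1375247_at had 0.046, 0.053 and 0.032 in the SNI samples and −0.032, −0.097 and −0.24 in the control samples. The groups did not overlap, and the SNI samples varied less (SD 0.011) than the control samples (SD 0.11). The log2 difference was 0.17 (SE 0.071, 95% confidence interval 0.0046 to 0.33, limma adjusted p = 0.367). It was 0.11 without control sample 3 and 0.0094 with the hybridization controls as a covariate, and in both its unadjusted p was above 0.05.

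The other 3 probe sets of Mgll overlapped between the groups and did not reach an unadjusted p of 0.05. Probe set 1388644_at had −0.025, 0.12 and 0.065 in the SNI samples and 0.010, −0.010 and −0.20 in the control samples, a difference of 0.12. Probe set 1370831_at had −0.030, 0.062 and 0.030 in the SNI samples and −0.042, 0.053 and −0.27 in the control samples, a difference of 0.11. Probe set 1375355_at had 0.045, −0.059 and 0.047 in the SNI samples and −0.045, 0.076 and −0.17 in the control samples, a difference of 0.057.

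Control sample 3 was the lowest of the 6 samples on all 4 Mgll probe sets. The gene mean of Mgll was 0.032 ± 0.020 in SNI samples and −0.082 ± 0.12 in control samples (SD, n = 3 each). The groups did not overlap, with SNI sample 1 at 0.0090 next to control sample 2 at 0.0055. Its difference was 0.11 (SE 0.071, 95% confidence interval −0.049 to 0.28, limma adjusted p = 0.540), the largest of the 5 genes. Without control sample 3 it was 0.043, and probe set 1375355_at was at −0.0045. With the covariate the gene mean was 0.032.

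Faah, which breaks down anandamide, had the smallest difference of the 5 gene means. Probe set 1368717_at had 0.048, −0.0072 and 0.0081 in the SNI samples and −0.11, 0.0072 and −0.055 in the control samples, a difference of 0.069 (SE 0.061). Probe set 1384341_at had −0.11, −0.0084 and 0.093 in the SNI samples and 0.028, 0.0084 and −0.029 in the control samples, a difference of −0.0095 (SE 0.069). Both probe sets overlapped between the groups. The gene mean differed by 0.030 (SE 0.053, 95% confidence interval −0.092 to 0.15, limma adjusted p = 0.859).

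None of the 5 gene means passed an adjusted p of 0.05 over the 14224 genes tested, and none had an unadjusted p under 0.05. Over all genes 0.0% passed after adjustment and 13.1% had an unadjusted p under 0.05. With the methods' t-test none of the 5 passed after adjustment, and Cnr1 had an unadjusted p under 0.05. The groups did not overlap for 2 of the 5, Cnr1 and Mgll, both higher in the SNI group, where 6.38% of all gene means were higher without overlap and 20.1% had no overlap in either direction. In order of the difference, SNI minus control, the genes were Mgll, Cnr2, Cnr1, Faah and Daglb, and for each pair of neighbours in this order the interval of each held the value of the other. In the fit without covariates the intervals lay between −0.22 and 0.32 for the gene means and between −0.27 and 0.37 for the probe sets. They were thus within the log2 value of 0.58 that a 1.5-fold change of the array values in either direction would need. Detection could not be read, so the intervals set no bound on an mRNA whose probe set reads only background. With the hybridization controls as a covariate the probe set of Cnr2 was at 0.53 (SE 0.16).

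**Figure D3:**
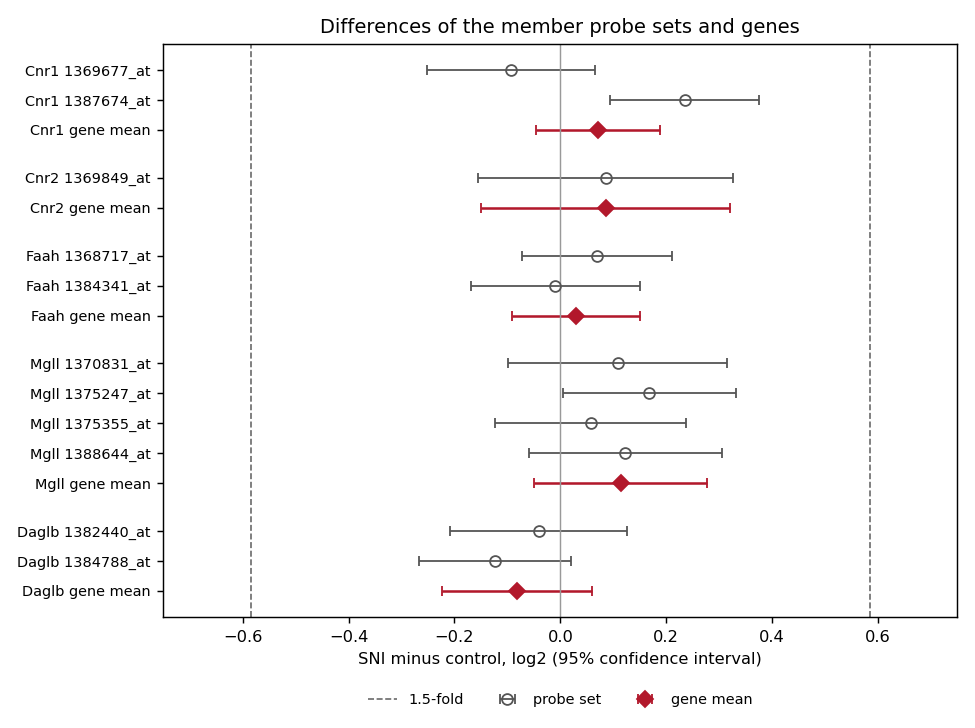
Log2 difference, SNI minus control (x axis), with the 95% confidence interval of limma, for each member probe set (open circles) and each gene mean (filled diamonds). Dashed lines mark a 1.5-fold change in either direction; no interval reaches them, and only those of Cnr1 1387674_at and Mgll 1375247_at do not cross 0.

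The samples of the control group differed more among themselves than those of the SNI group. The SD was larger in the control group for 9 of the 11 member probe sets, as for 70.1% of all probe sets. Member SDs ran between 0.011 and 0.099 in the SNI group and between 0.029 and 0.20 in the control group. Control sample 3 had the lowest or highest value of the 6 on 8 of the 11 member probe sets, and on 34.3% of all probe sets. It was lowest for Mgll and for 1387674_at of Cnr1, and highest for 1369677_at of Cnr1 and for both probe sets of Daglb.

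Several technical and cell type measures moved with the groups. The hybridization controls, transcripts added before hybridization, averaged 0.054 to 0.19 on the SNI arrays and −0.22 to −0.047 on the control arrays. The 24 probe sets of the poly-A controls, added to the RNA before labelling, averaged 0.12, 0.040 and 0.091 on the SNI arrays and 0.044, −0.24 and −0.33 on the control arrays, so that control sample 1 lay just above SNI sample 2. At an unadjusted p under 0.05, 3.96% of all gene means were higher and 9.19% were lower, the background for each marker list below. Of 7 microglia markers, 4 were higher at this threshold and none was lower. Their mean was 0.052 to 0.17 in the SNI samples and −0.19 to −0.071 in the control samples. Of 6 markers of inhibitory interneurons, among them Cck, none had an unadjusted p under 0.05 and all 6 had differences below 0, with list means of −0.12 to −0.0068 in the SNI samples and 0.019 to 0.20 in the control samples. Of 5 markers of striatum, a neighbouring region rich in CB1, 2 were lower at an unadjusted p under 0.05 (Penk and Ppp1r1b). Drd2 and Adora2a went the other way, at 0.022 and 0.053, and Drd1 was at −0.16, all 3 with overlapping groups. List means were −0.069 to −0.055 in the SNI samples and 0.070 to 0.10 in the control samples. The 5 markers of meninges and fibroblasts had none past an unadjusted p of 0.05, but control sample 3 had a mean of 0.69, against −0.33 to 0.30 in the SNI samples and −0.18 and −0.17 in the other two control samples. Of the remaining lists, neurons had 1 higher and 2 lower of 6, oligodendrocyte precursors 2 higher of 2, endothelium 1 higher of 4 and blood cells 1 higher of 5. Astrocytes (6 markers), oligodendrocytes (5) and choroid plexus (3) had none past an unadjusted p of 0.05. The part of these measures in the values of Cnr1, Cnr2, Mgll and Daglb was not tested.

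Beyond the members, 51 other genes of the pathway were listed in 6 groups by role, and 45 were measured as the mean of their probe sets. None passed an adjusted p of 0.05 in limma. At an unadjusted p under 0.05, 2 of the 45 were higher (Ptgs2 and Fabp7) and 5 were lower (Gdpd1, Plaat1, Gnaq, Gnai1 and Gnao1), where 3.96% of all genes were higher and 9.19% lower. The groups did not overlap for 3 higher and 12 lower genes (background 6.38% and 13.7%). The median difference was −0.052, against −0.011 for all genes, and 16 of the 45 had a difference above 0, as 45.2% of all genes had.

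The other enzymes of synthesis had 2 of 9 lower, none higher, and a median difference of −0.087. Gdpd1, a phosphodiesterase of a side route to anandamide, had −0.11, −0.094 and −0.16 in the SNI samples and 0.19, 0.059 and 0.16 in the control samples. The groups did not overlap, and the difference was −0.26 (SE 0.058, adjusted p = 0.200). Its 2 probe sets were at −0.41 and −0.10. Plaat1, an acyltransferase of phospholipids that can form anandamide precursors, had −0.27, −0.024 and −0.081 in the SNI samples and 0.17, 0.064 and 0.024 in the control samples, without overlap, and a difference of −0.21 (SE 0.079, adjusted p = 0.322). It was −0.14 without SNI sample 1 and −0.17 without control sample 1, and in neither was the unadjusted p under 0.05.

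The other enzymes of breakdown or oxidation had 1 of 7 higher, none lower, and a median difference of 0.071. Abhd6, a hydrolase of 2-AG, had the largest difference of the 45 genes, at 0.58 (SE 0.27, adjusted p = 0.405), and did not reach an unadjusted p of 0.05. Its values were 0.20, 0.059 and 0.085 in the SNI samples and −0.062, −0.14 and −1.20 in the control samples, so the groups did not overlap but control sample 3 set the size of the difference. Without that sample it was 0.21 (limma unadjusted p = 0.019, adjusted p = 0.411), and with the hybridization controls as a covariate it was −0.26. The unadjusted p of Abhd6 was also under 0.05 without control sample 1 or 2, with quantile normalization repeated and with the replicate block. It was above 0.05 in the other alternatives, among them each SNI sample left out. Ptgs2, the inducible cyclooxygenase, which also oxidizes 2-AG and anandamide, had 0.011, 0.22 and −0.011 in the SNI samples and −0.31, −0.75 and 0.019 in the control samples. Control sample 3 lay within the SNI samples, and the difference was 0.42 (SE 0.17, adjusted p = 0.356), or 0.22 without control sample 2. Its unadjusted p stayed under 0.05 only when control sample 3 was the one left out.

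Among partners of CB1 and carriers of its lipids, 1 of 6 was higher, none was lower, and the median difference was −0.052. Fabp7, a fatty acid binding protein of astrocytes and progenitors, had 0.19, 0.12 and 0.099 in the SNI samples and −0.18, −0.099 and −0.34 in the control samples. The groups did not overlap, and the difference was 0.34 (SE 0.072, adjusted p = 0.197). Gprasp1, which sorts receptors after endocytosis, was at −0.11 (SE 0.052, adjusted p = 0.438).

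Upstream of 2-AG, where Gq-coupled receptors and phospholipase C supply diacylglycerol, 1 of 10 genes was lower, none was higher, and the median difference was −0.067. Gnaq, the alpha subunit of Gq, had −0.17, −0.0090 and −0.20 in the SNI samples and 0.16, 0.0090 and 0.081 in the control samples, a difference of −0.21 (SE 0.071, adjusted p = 0.291). SNI sample 2 and control sample 2 lay close together. Its unadjusted p was above 0.05 without SNI sample 1 (−0.19), SNI sample 3 (−0.17) or control sample 1 (−0.17). Chrm3, a muscarinic receptor, was also at −0.21 but varied more (SE 0.11, adjusted p = 0.491), with overlapping groups.

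Downstream of CB1, 2 of 10 genes of Gi/o proteins and their effectors were lower, none was higher, and the median difference was −0.075. Gnai1, an alpha subunit of Gi, had −0.022, −0.11 and −0.087 in the SNI samples and 0.35, 0.022 and 0.41 in the control samples. Control sample 2 lay nearest the SNI samples. The difference was −0.33 (SE 0.10, adjusted p = 0.245), and −0.45 without control sample 2 (adjusted p = 0.0788). Gnao1, the alpha subunit of Go, had −0.092, −0.034 and −0.085 in the SNI samples and 0.12, 0.034 and 0.10 in the control samples, a difference of −0.16 (SE 0.054, adjusted p = 0.291). Its unadjusted p was above 0.05 without SNI sample 1, SNI sample 3 or control sample 3, with differences of −0.15 in each. Of the 7 genes, Gdpd1, Fabp7 and Gnai1 kept an unadjusted p under 0.05 with each of the 6 samples left out, and with the hybridization controls as a covariate Gdpd1 did.

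Other receptors of endocannabinoids and related lipids had 3 of 6 genes measured, and none had an unadjusted p under 0.05. Ppara and Pparg, nuclear receptors of fatty acids, were at 0.024 and 0.037, with adjusted p = 0.911 and adjusted p = 0.851, and the median of the list was 0.024.

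**Figure D4:**
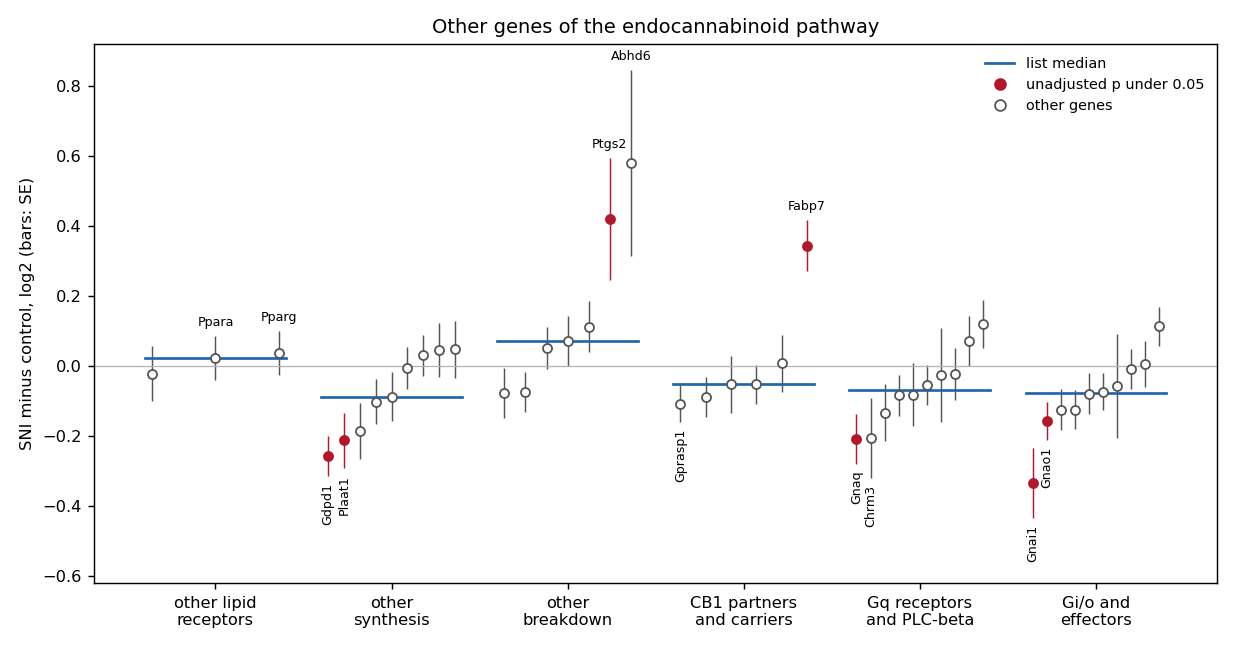
Log2 difference, SNI minus control (y axis), of 45 other genes of the pathway in 6 groups by role (x axis), averaged over the probe sets of the gene, with the SE. Filled circles have an unadjusted p under 0.05, the horizontal bar is the median of a group, and the 2 genes with the smallest p of each group are named; Abhd6 stands highest with the widest error bar.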

How the data were processed

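The authors processed the Affymetrix arrays with RMA and deposited log2 values after quantile normalization, per the methods and the labels. For differential expression on the arrays the methods name limma. The unpaired test among the alternatives below comes from their section on statistics in general. Software versions: not given in the sources used here. The deposited log2 values are also centred on each probe set's median over the 6 samples (the median of every row was 0 within 4.78e-07), a step the sources used here do not describe, so no filter on dim probe sets was possible. Groups came from the sample titles. After 57 array controls were left out, 31042 probe sets were fitted with lmFit and eBayes of limma 3.58.1 in R 4.3.3, SNI minus control, two-sided, without covariates, with Benjamini-Hochberg adjustment. Gene means (14224 genes) average all probe sets with that symbol alone. Confidence intervals (95%) rest on the moderated variances and their degrees of freedom. The number of arrays limits the precision. With 3 samples a group the smallest p of an exact permutation test is 0.1. The fit was tested on simulated data. Figures used matplotlib 3.10.9 in Python 3.11.15.

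The 7 members, the 6 pathway lists and the 11 marker lists were chosen with earlier results of these data known. Named were all members, the 2 genes with the smallest p of each pathway list, all its genes with an unadjusted p under 0.05, and the 3 genes closest to Cnr1. Alternatives tried were robust variance estimates, array medians aligned, a second quantile normalization, the methods' t-test, the replicate number as a block, the hybridization controls (18 probe sets) as a covariate, the median of the probe sets of a gene, probe sets with 1 symbol only, an adjusted p under 0.10, and each sample left out. The second quantile normalization was run on the centred values, so it does not repeat the authors' step on uncentred values. The Cnr1 gap and the counts at an unadjusted p under 0.05 were put through alternatives chosen after seeing the data. Arrays of miRNA, qPCR and cell culture were not analysed here.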

Additional observations from a re-analysis of the deposited data

Results flagged for a closer look

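The hybridization control probe sets, which no comparison of the study uses, were higher on the SNI arrays than on the control arrays, by 0.27 on average (means of 0.11 and −0.16), with no overlap between the groups.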

How the results depend on the processing

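No member probe set, member gene mean or named pathway gene passed an adjusted p of 0.05 in any alternative run for it. Of 197 values of member probe sets and gene means under the alternatives, 188 kept their direction and 9 changed sign, all of them with an adjusted p above 0.9. Many of the 188 could not change sign. The methods' t-test, the robust variance estimates and the replicate block alter only the SE and p, not the difference. The median of the probe sets equals the mean for genes with 1 or 2 probe sets. Cnr2, as probe set and as gene mean, lay between −0.019 (without control sample 1) and 0.17 with a sample left out. Faah 1384341_at was at 0.034 with the hybridization controls as a covariate and between −0.059 and 0.040 with a sample left out, above 0 without SNI sample 1 or control sample 1 (0.0033). Mgll 1375355_at was at −0.027 with the covariate and between −0.0045 (without control sample 3) and 0.12 with a sample left out. Daglb 1382440_at was at 0.039 with the covariate and between −0.094 and 0.010 (without control sample 3) with a sample left out. The Cnr1 gap of 0.33 was 0.29 with the covariate and between 0.25 and 0.40 with a sample left out. At an unadjusted p under 0.05 the count of member probe sets, 2 with all samples, was 1 with the replicate block (Cnr1 1387674_at), and 1 with the covariate, where it was Cnr2 1369849_at and neither of the 2. It was between 1 and 2 with a sample left out: Cnr1 1387674_at was kept each time, and Mgll 1375247_at was lost without SNI sample 1, 2 or 3 and without control sample 3. The count of pathway genes, 7 with all samples, was 3 with the covariate, of which Gdpd1 was one of the 7 and Gdpd3 and Kcnj9, named after their values were seen, were not. It was 4 without SNI sample 1 (3 of the 7 and Chrm3), 4 without SNI sample 3 (4 of the 7) and 12 without control sample 2 (6 of the 7 and 6 others). The share of all probe sets or genes at this threshold was not counted in the alternatives. Their counts thus have no background beside them and cannot be read as a change of the members or pathway genes.

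Over all probe sets, 10 passed an adjusted p of 0.05. The count was 66 with quantile normalization repeated on the centred values and 0 with the methods' t-test. It was 0 among probe sets with 1 symbol and 214 at an adjusted p under 0.10. When a sample was left out it was between 0 (without SNI sample 3) and 35 (without control sample 2). It was 1 when SNI sample 2 or control sample 3 was left out. With the replicate number as a block it was 9. Same-numbered samples were not correlated in their deviations from the group means (0.0085, −0.0098 and −0.069). No pairing by number was thus seen over all probe sets. That cannot exclude one in the design, since the sources used here do not say how samples were matched or run. The causes of these changes were not tested, beyond the fewer samples of each set left out.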

Other observations

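The genes whose means followed that of Cnr1 most closely over the 6 samples were Ybx3 (Pearson r = 0.99), an RNA and DNA binding protein, Hes1 (r = 0.98), a transcriptional repressor of Notch signalling, and Dennd6b (r = 0.98). They are given as a description: 117 genes had an r above 0.9 with Cnr1 over these 6 samples, which also share the difference between the groups, and the mean of Cnr1 joins probe sets of opposite sign. Hes1 had 0.044, 0.57 and 0.28 in the SNI samples and −0.28, −0.34 and −0.044 in the control samples, a difference of 0.52 (SE 0.13, limma adjusted p = 0.216). Ybx3 differed by 0.29 (SE 0.080, limma adjusted p = 0.227) and Dennd6b by 0.16 (SE 0.056, limma adjusted p = 0.291). None of the 3 passed the test. The groups did not overlap for any of them, where 6.38% of all gene means were higher without overlap. That adds nothing of its own, since the genes were picked by likeness to a Cnr1 mean without overlap.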
